A study of Rattus norvegicus with 18 samples.

Results

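Glutamate released in the cortex is taken up by astrocytes through sodium-dependent transporters and turned into glutamine. The genes followed here are Slc1a3 and Slc1a2, which encode the glial transporters GLAST and GLT-1, and Glul, which encodes glutamine synthetase, the enzyme that joins glutamate with ammonia. Cultured astrocytes grown without neurons are known for abundant GLAST and little GLT-1. All probe sets that the platform annotation assigns to these genes were taken, which gave 11 of the 1322 probe sets in the table, with 3 for Slc1a2, 4 for Slc1a3 and 4 for Glul. All 11 passed the filter on low values and were tested.

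The study asked how rat cortical type-I astrocytes in culture respond over time to contact with a fragment of beta-amyloid, the peptide of Alzheimer plaques. The 12 exposed samples, 3 for each time, were grown on the immobilized 25-35 fragment for 12 hours, 1 day, 3 days or 5 days. The 6 controls grew on laminin and nitrocellulose with no peptide, for a time that the labels do not give, so no exposed group has a control known to be of its own time. Controls 1 and 2 carry cerebral cortex as their source, and the other 16 samples carry type-I astrocytes. The labels give no strain, age or genotype. Nor do they state whether each sample was its own culture, and the spread behind the p-values may therefore be technical. In pooled RNA from many cells, fewer cells of a type and less RNA per cell cannot be told apart.

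The 18 arrays fell into 2 clusters that were drawn from the other probe sets, without the 11 described here. Cluster 1 held 7 arrays, namely controls 1 and 2, the whole 12 hours group and the array numbered 3 of both 1 day and 3 days. The remaining 11 formed cluster 2, among them the whole 5 days group. The median Pearson correlation of log2 signal between arrays was 0.923 within clusters and 0.813 across them. Of 18 astrocyte markers 7 were measured, and none of them was at or under the floor of 11.3 on any array. They summed to 23433.1 to 28830.2 in cluster 1 and to 17291.7 to 30552.2 in cluster 2. Of these 7, which do not include Slc1a3, 3 did not overlap between the clusters, as was so for 14.9% of all tested probe sets. S100b, a calcium-binding protein gene, was at 19.7 to 401.2 in cluster 1 and 528.6 to 1209 in cluster 2, and Mt3, a metallothionein gene, at 91.9 to 474.3 and 694.5 to 4629.4. Gja1, a gap junction gene, ran the other way, at 4269.5 to 11591.7 in cluster 1 and 810.6 to 3116.5 in cluster 2. The signals of Vim, an intermediate filament gene, were 14574.7 to 18647.7 in cluster 1 and 8770.4 to 18831.2 in cluster 2. Neuron markers, 10 of 14 measured, summed to 3371.8 to 4888.6 in cluster 1 and to 4805.3 to 6197.9 in cluster 2. Among them Map2 did not overlap, at 31.1 to 74 in cluster 1 and 241.1 to 631.9 in cluster 2, and the rest did. The 2 measured of 12 fibroblast, meningeal and vascular markers summed to 9108.8 to 30181.1 in cluster 1 and 6704 to 20181.6 in cluster 2. One of them, Igf2, a growth factor gene, was at 3282.5 to 8743.8 in cluster 1 and 211.2 to 645.3 in cluster 2. The other, Igfbp2, overlapped, at 5678.6 to 21437.3 in cluster 1 and 6081.4 to 19649.1 in cluster 2. Oligodendrocyte markers, 6 of 10 measured, summed to 1628 to 1977 in cluster 1 and 1104.9 to 1926.5 in cluster 2, with Sox10 at or under the floor on 17 arrays. Of 9 microglia markers only Itgam was measured, at 22.3 to 77.

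Slc1a3 followed the array clusters far more than the exposure on 3 of its 4 probe sets. On S59158_at, the brightest, the controls had signals from 259.8 to 3927.7 with a median of 2385.6. The 12 hours arrays had 654.8, 565.4 and 626.7, those of 1 day 3289.3, 3316.1 and 301.9, those of 3 days 2396.4, 2434.5 and 293.1, and those of 5 days 4874.2, 4422.6 and 4329.3. The 7 arrays of cluster 1 were all low, at 259.8 to 654.8, and the 11 of cluster 2 all high, at 1556.2 to 4874.2, so the clusters did not overlap while the controls spanned both.

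The same split ran through S75687_s_at, with 115.9 to 186 in cluster 1 against 492.9 to 2163.7 in cluster 2. X63744_g_at had 38.7 to 55.7 in cluster 1 and 118.7 to 637.3 in cluster 2. The mean log2 signal was higher in cluster 2 by 2.91 on S59158_at, 3.19 on S75687_s_at and 2.85 on X63744_g_at. These 3 of the 11 probe sets did not overlap between the clusters, as was so for 14.9% of the 1027 tested probe sets. The median size of the cluster difference over all 1027 was 0.42, and 37 probe sets had one at least as large as that of S59158_at. The clusters took 89.3% of the sum of squares of S59158_at, 90.2% of S75687_s_at and 88.3% of X63744_g_at, where the median over all tested was 20.1%. The 5 groups of the study took 32.0%, 39.7% and 42.0% of them. Among the controls alone, whose labels differ in source, controls 1 and 2 had 533.3 and 259.8 on S59158_at, and controls 3 to 6 had 1556.2, 3927.7, 3215 and 3560.1. These same 3 probe sets were without overlap between these controls, against 38.8% of all tested. The part of the markers given above in this split, astrocyte markers included, was not tested.

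**Figure D1:**
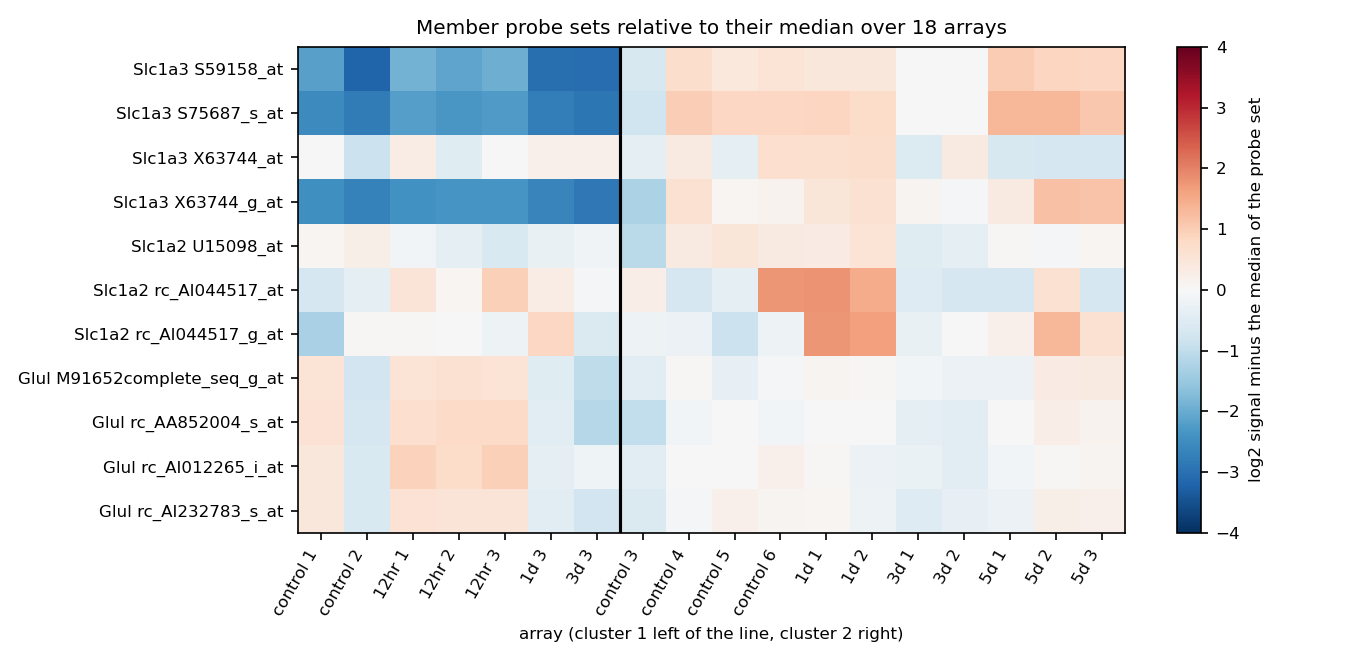
Each cell shows the log2 signal of 1 probe set on 1 array minus the median of that probe set over 18 arrays, with cluster 1 left and cluster 2 right of the line. Slc1a3 is low on all 7 arrays of cluster 1 on 3 probe sets, its X63744_at row shows no such split, and the Glul rows are highest at 12 hours.

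The fourth probe set, X63744_at, did not show the split. Its signals were 19.5 to 43.1 in cluster 1 and 21.9 to 57 in cluster 2, and it was above the filter of 44.9 on 4 arrays. Within cluster 1 its Pearson correlation with S59158_at was 0.253 over 7 arrays, and within cluster 2 it was -0.080 over 11. The other 3 probe sets of Slc1a3 correlated with each other at 0.898 to 0.950 in cluster 1 and 0.860 to 0.986 in cluster 2. These correlations are descriptions, over arrays that each carry all probe sets. Which part of the transcript each probe set reads is not given in the sources used here.

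Against control no Slc1a3 probe set passed limma's test at an adjusted p of 0.05 at any time. By mean log2 signal of S59158_at the groups ranked 5 days, 1 day, control, 3 days and 12 hours. At 12 hours its log2 fold against control was -1.25 (SE 0.95, limma adjusted p = 0.377), at 1 day 0.03 (SE 0.95), at 3 days -0.29 (SE 0.95) and at 5 days 1.64 (SE 0.95, limma adjusted p = 0.539). The direction at 12 hours turned when the clusters entered the fit as a block, to 0.82 (SE 0.31, limma adjusted p = 0.161) for S59158_at. S75687_s_at turned from -1.69 to 0.43 and X63744_g_at from -1.45 to 0.38. Within cluster 1, where 3 arrays of 12 hours met controls 1 and 2, the folds of these Slc1a3 probe sets were 0.72, 0.40 and 0.20, none of them called. Without controls 1 and 2, so against controls of the other cluster only, S75687_s_at was called lower at -2.73 (limma adjusted p = 0.0268) and X63744_g_at at -2.28 (limma adjusted p = 0.0460), and S59158_at at -2.23 was not (limma adjusted p = 0.0542). In that fit 321 of all 1027 probe sets were called at 12 hours, against 17 with all controls. The sign of the Slc1a3 difference at 12 hours therefore depended on which controls it was taken against.

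At 5 days S59158_at and S75687_s_at were above all 15 other arrays, while 1.75% of all tested probe sets had 5 days arrays entirely above or entirely below the others. With the block the fold of S59158_at at 5 days was 0.60 (SE 0.28, limma adjusted p = 0.515), that of S75687_s_at 0.78 and that of X63744_g_at 0.91. Among cluster 2 arrays, S59158_at was at 4329.3 to 4874.2 at 5 days against 1556.2 to 3927.7 in controls 3 to 6, a difference that did not pass the test. The other 2 Slc1a3 probe sets did not share this order. On X63744_g_at 5 days array 1, at 366, lay below control 4, at 430.3, and below arrays 1 and 2 of 1 day, at 393.3 and 435.4. On X63744_at the arrays of 5 days were at 22.5, 21.9 and 21.9, with a log2 fold against control of -0.57 (SE 0.31, limma adjusted p = 0.520).

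On S59158_at, S75687_s_at and X63744_g_at the largest of the 8 differences between groups was that of 5 days against 12 hours. Log2 folds were 2.88 on S59158_at (SE 1.10, limma adjusted p = 0.0822), 3.52 on S75687_s_at (SE 1.13, limma adjusted p = 0.0460) and 3.28 on X63744_g_at (SE 1.00, limma adjusted p = 0.0446). X63744_at had -0.59 (SE 0.35, limma adjusted p = 0.263). All arrays of 12 hours lay in cluster 1 and all of 5 days in cluster 2, so exposure time and cluster cannot be told apart in this contrast. With the clusters as a block the folds were -0.22 on S59158_at, 0.35 on S75687_s_at and 0.52 on X63744_g_at, and none of the 3 was called (limma adjusted p from 0.636 to 0.831). Leaving out 1 array at a time, the call of S75687_s_at held in 7 of 18 fits, those without controls 1, 2, 4, 5 or 6, 1 day array 3 or 3 days array 3. That of X63744_g_at held in 8 of 18, the same ones and that without 3 days array 1.

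RefSeq lists 3 starts of Slc1a3 on the minus strand of chromosome 2, whose windows overlap, so only that of the most upstream start is shown. The 150 bases before a start are printed to set the 3 genes side by side, since their signals moved differently. The array did not measure promoters. Both strands were searched for the GC box with the letters GGGCGG, which binds Sp1-type factors, and for the box named after its letters CCAAT. They were also searched for the TATA box as TATAAA and for the half-site of the glucocorticoid receptor as AGAACA. Last came the cAMP response element, written TGACGTCA. Matches are printed in capitals, and no matches overlapped. Of 33469 rat windows of this length the share that held each of these 5 was, in that order, 26.0%, 23.5%, 8.0%, 10.8% and 1.36%. The Slc1a3 window, chr2:59557809-59557958 of GRCr8, held none of these letters.
Slc1a3: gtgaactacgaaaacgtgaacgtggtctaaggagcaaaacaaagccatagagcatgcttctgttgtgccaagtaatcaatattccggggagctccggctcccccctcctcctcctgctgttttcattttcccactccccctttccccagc

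Slc1a2 was dim, and its 3 probe sets differed in what they showed. The brightest, U15098_at, had control signals from 36.5 to 107.4 with a median of 93.7. The arrays of 12 hours had 70.8, 58.5 and 50.4, those of 1 day 97.2, 111.9 and 62.3, those of 3 days 55.2, 58.7 and 69.3, and those of 5 days 79.3, 74.4 and 80.6. Control 3 was the lowest of all 18 arrays and every group overlapped the controls. At 12 hours, 3 days and 5 days the overlap came through control 3 alone, since the other controls were at 80.7 to 107.4. The groups ranked 1 day, control, 5 days, 3 days and 12 hours by mean log2 signal. Log2 folds against control were -0.44 (SE 0.29) at 12 hours, 0.13 at 1 day, -0.40 at 3 days and -0.04 at 5 days, with limma adjusted p-values from 0.315 up. The sign at 5 days turned under quantile normalization (0.06) and cyclic loess (0.13).

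A different pattern came from Slc1a2 rc_AI044517_g_at, which rose 3.67-fold at 1 day. Its control signals ran from 18.2 to 45.8 with a median of 38.4, and those of 12 hours were 45.9, 45.4 and 39. The arrays of 1 day had 152.8, 139 and 79.5, those of 3 days 36.6, 44 and 30.1, and those of 5 days 51.7, 111.4 and 68.5. All 3 arrays of 1 day, in both clusters, were above every control, and so were all 3 of 5 days. The log2 fold at 1 day was 1.88 (SE 0.31, limma adjusted p = 0.0151), and 1.88 (SE 0.29, limma adjusted p = 0.00498) with the clusters as a block. Within cluster 2 it was 2.08 (SE 0.31, limma adjusted p = 0.00296) and within cluster 1, with a single array of 1 day, 1.46 (SE 0.57). Over all probe sets, calls at 1 day numbered 3 as reported, 30 with the block and 123 within cluster 2. At 5 days the log2 fold was 1.18 (SE 0.31, limma adjusted p = 0.272).

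This Slc1a2 probe set was the 1 member called over the 5 groups (limma F-test, adjusted p = 0.0343). The call at 1 day was lost without 1 day array 1 (log2 fold 1.70, limma adjusted p = 0.192) or array 2 (1.77, limma adjusted p = 0.144), the 2 brightest arrays. It was also lost in a fit of these 2 groups alone, at 1.88 (limma adjusted p = 0.286), and with a replicate block, at 1.90 (limma adjusted p = 0.116). From 1 day to 3 days its log2 signal differed by -1.71 (SE 0.36, limma adjusted p = 0.0893), and with the clusters as a block by -1.71 (limma adjusted p = 0.0290), which passed. With that block 13 of all probe sets passed, against 1 without it.

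The third, rc_AI044517_at, passed the filter through only 3 arrays, control 6 and arrays 1 and 2 of 1 day, and was at or under the floor on 4. Its control signals were 7.7 to 62.1, and the arrays of 1 day had 63.1, 51 and 22.5. Control 6 at 62.1 lay among the arrays of 1 day, so these groups overlapped. Its log2 fold at 1 day was 1.21 (SE 0.50, limma adjusted p = 0.389), in the same direction as the neighbouring probe set and understated by the floor. The correlation of the 2 rc_AI044517 probe sets was 0.527 in cluster 1 and 0.583 in cluster 2. Each correlated with U15098_at at -0.809 and -0.319 in cluster 1 and at 0.337 and 0.282 in cluster 2. Of the 3 Slc1a2 probe sets, rc_AI044517_g_at alone passed the test at 1 day. The clusters took only 0.405%, 9.47% and 5.55% of the sum of squares of rc_AI044517_at, rc_AI044517_g_at and U15098_at. Summed neuron markers at 1 day were 4888.6 to 5320.4, within the control range of 3545.7 to 6197.9. This sum is weighted to Eno2, at 2122.9 to 3833.6 over the 18 arrays, and says little of dimmer markers. Limma called 0 of the 10 at 1 day against control. The smallest p among them was that of Nefl, at a log2 fold of 1.49 (SE 0.51, limma adjusted p = 0.331). Summed oligodendrocyte markers were 1169.9 to 1971.1 at 1 day and 1104.9 to 1926.5 in controls.

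RefSeq holds 2 starts of Slc1a2 on the plus strand of chromosome 3. The window at chr3:109459959-109460108 held none of the letters searched, and that at chr3:109507797-109507946 held 1 AGAACA.
Slc1a2 upstream start: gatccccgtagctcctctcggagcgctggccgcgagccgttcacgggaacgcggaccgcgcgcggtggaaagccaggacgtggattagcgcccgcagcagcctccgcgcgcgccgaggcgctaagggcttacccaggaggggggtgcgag
Slc1a2 downstream start: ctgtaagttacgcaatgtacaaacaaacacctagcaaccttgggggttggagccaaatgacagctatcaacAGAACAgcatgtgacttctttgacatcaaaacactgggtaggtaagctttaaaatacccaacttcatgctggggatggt

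**Figure D2:**
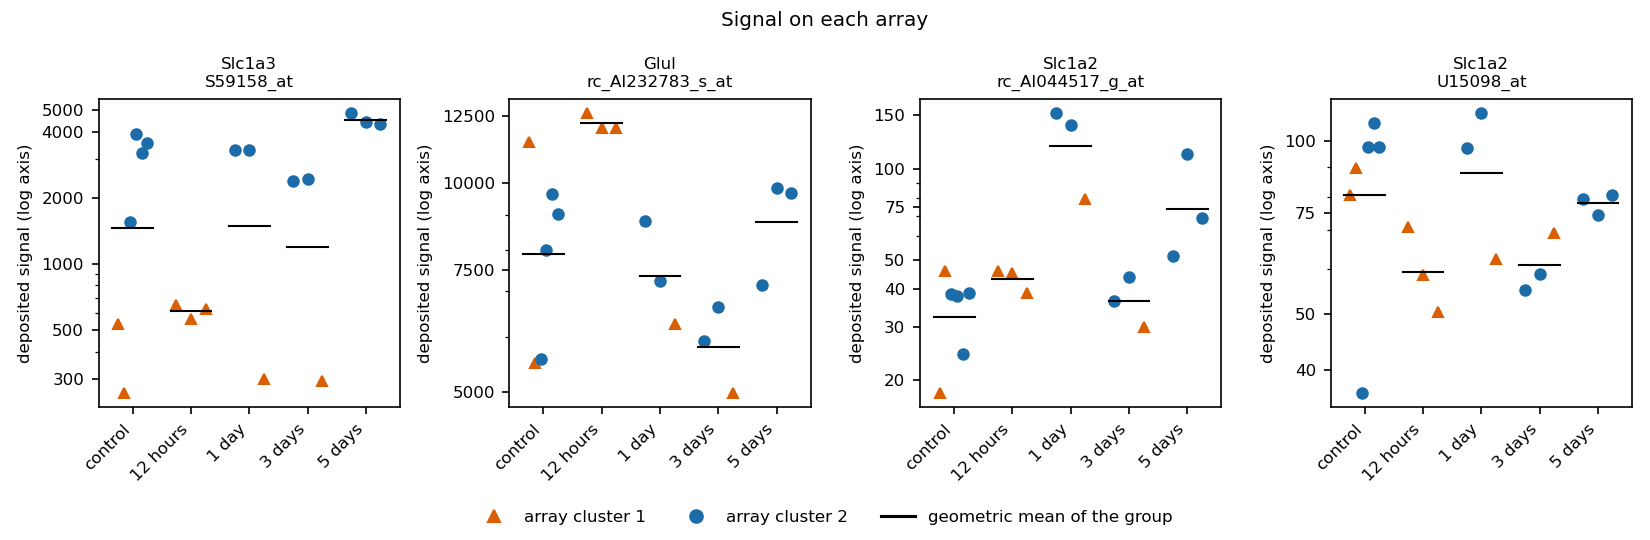
Deposited signal on a log axis on each array, by group, for the brightest probe set of each gene and for Slc1a2 rc_AI044517_g_at. Triangles are cluster 1, circles cluster 2, and bars geometric means. Slc1a3 separates by symbol rather than by group, Glul is highest at 12 hours, and the 2 Slc1a2 panels differ at 1 day.

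Glul was bright, and its 4 probe sets moved together. On rc_AI232783_s_at, the brightest, control signals ran from 5504.1 to 11456.1 with a median of 8511.7. The arrays of 12 hours had 12630.1, 12006.4 and 12026.7, those of 1 day 8804.6, 7218.9 and 6263.2, those of 3 days 5909.8, 6621.2 and 4981.2, and those of 5 days 7126.5, 9839.4 and 9689.1. All 3 arrays of 12 hours were above the other 15, with control 1 next below them.

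That order held on every Glul probe set. On M91652complete_seq_g_at the arrays of 12 hours had 7534.5, 7797.4 and 7508.6, and the highest other array, control 1, had 7428.4. On rc_AA852004_s_at they had 3838.7, 4084.3 and 4042.1 against 3594.3 in control 1. On rc_AI012265_i_at they had 687.8, 608.5 and 709.8 against 504.6 in control 1. All 4 Glul probe sets thus had 12 hours arrays above all 15 others, while 7.11% of all tested had them entirely above or entirely below. In cluster 1, which holds all arrays of 12 hours, control 1 was high on all 4 and control 2 was low, at 5504.1 on rc_AI232783_s_at. The cause of this order was not tested.

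At 12 hours the log2 folds against control were 0.74 (SE 0.28, limma adjusted p = 0.114) on M91652complete_seq_g_at, 0.95 (SE 0.28, limma adjusted p = 0.0881) on rc_AA852004_s_at and 0.63 (SE 0.23, limma adjusted p = 0.114) on rc_AI232783_s_at. On rc_AI012265_i_at the log2 fold was 0.92 (SE 0.21, limma adjusted p = 0.0439), the only one of the 4 to pass. The folds of all 1027 probe sets had a median of -0.18 at 12 hours, which median centring moved to -0.01. Under the 3 other scalings the Glul folds stayed positive, at 1.00 to 1.09 on rc_AI012265_i_at and 0.52 to 0.80 on rc_AI232783_s_at. With the clusters as a block the 4 were 0.95, 1.06, 0.94 and 0.74, as large or larger, with none called (limma adjusted p from 0.0944 to 0.159). Within cluster 1 they were 0.69, 0.78, 0.93 and 0.62, with controls 1 and 2 as the only controls.

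The call of rc_AI012265_i_at was a narrow one. Leaving out 1 array at a time, it held in 4 of 18 fits, those without control 1, control 2, 1 day array 3 or 3 days array 3, and its log2 fold ran from 0.81 to 1.02 with limma adjusted p from 0.00576 to 0.160. Cyclic loess gave 1.00 (limma adjusted p = 0.0616). A fit of these 2 groups alone gave 0.92 (limma adjusted p = 0.169) and a replicate block 1.05 (limma adjusted p = 0.232). Without control 1 all 4 Glul probe sets were called at 12 hours, as were 211 of all 1027 tested. Without controls 1 and 2, which leaves only controls of cluster 2, all 4 were called at 0.63 to 1.03, as were 321 of all 1027. The reported fit called 17 of all 1027. Summed neuron markers at 12 hours were 3371.8 to 3606.7 against 3545.7 to 6197.9 in controls. All arrays of 12 hours lay in cluster 1, where this sum was 3371.8 to 4888.6. Of the 10 neuron markers only Syn1, which encodes a synaptic vesicle protein, was called, lower by 0.71 (limma adjusted p = 0.0475). With the clusters as a block 0 of the 10 were called. Their median log2 fold was -0.45 beside -0.18 over all tested, and Gap43 had 0.43. The part of the neuron markers in the Glul result was not tested.

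At later times no Glul probe set differed from control by limma's test. On rc_AI232783_s_at the groups ranked 12 hours, 5 days, control, 1 day and 3 days by mean log2 signal. None of these neighbours differed by limma's test. They were 5 days against 12 hours at -0.47 (SE 0.27, limma adjusted p = 0.243), 5 days against control at 0.15 (limma adjusted p = 0.784), 1 day against control at -0.10 (limma adjusted p = 0.942) and 3 days against 1 day at -0.34 (limma adjusted p = 0.839). The largest difference from control after 12 hours was -0.45 (SE 0.23) at 3 days. On rc_AI012265_i_at 1 day minus 12 hours was -1.04 (SE 0.24, limma adjusted p = 0.0846). At 5 days it was lower than at 12 hours by a log2 fold of -0.84 (SE 0.24, limma adjusted p = 0.0409), which with the clusters as a block was -0.87 (SE 0.30, limma adjusted p = 0.216). That call was lost without any 1 array of 12 hours or 5 days or without 1 day array 2, and held in 11 of 18 such fits.

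The clusters took 0.195% to 16.9% of the sum of squares of the Glul probe sets and the groups 48.4% to 73.4%. This was the reverse of Slc1a3 S59158_at, S75687_s_at and X63744_g_at, while Slc1a3 X63744_at had 0.0927% and 46.3%. A split into 5 groups tends to take a larger share than a split into 2 clusters. Correlations of the Glul probe sets with each other were 0.898 to 0.996 in cluster 1 and 0.604 to 0.874 in cluster 2. RefSeq holds 2 starts of Glul on the plus strand of chromosome 13. The window at chr13:68575916-68576065 held 1 GC box and 3 CCAAT boxes, and that at chr13:68519350-68519499 held 1 CCAAT box read on the minus strand.
Glul downstream start: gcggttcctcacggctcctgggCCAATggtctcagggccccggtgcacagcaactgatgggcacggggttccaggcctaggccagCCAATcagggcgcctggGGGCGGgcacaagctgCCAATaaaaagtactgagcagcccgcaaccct
Glul upstream start: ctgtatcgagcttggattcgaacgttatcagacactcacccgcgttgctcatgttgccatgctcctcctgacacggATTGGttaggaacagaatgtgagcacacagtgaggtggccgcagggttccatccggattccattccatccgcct

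**Figure D3:**
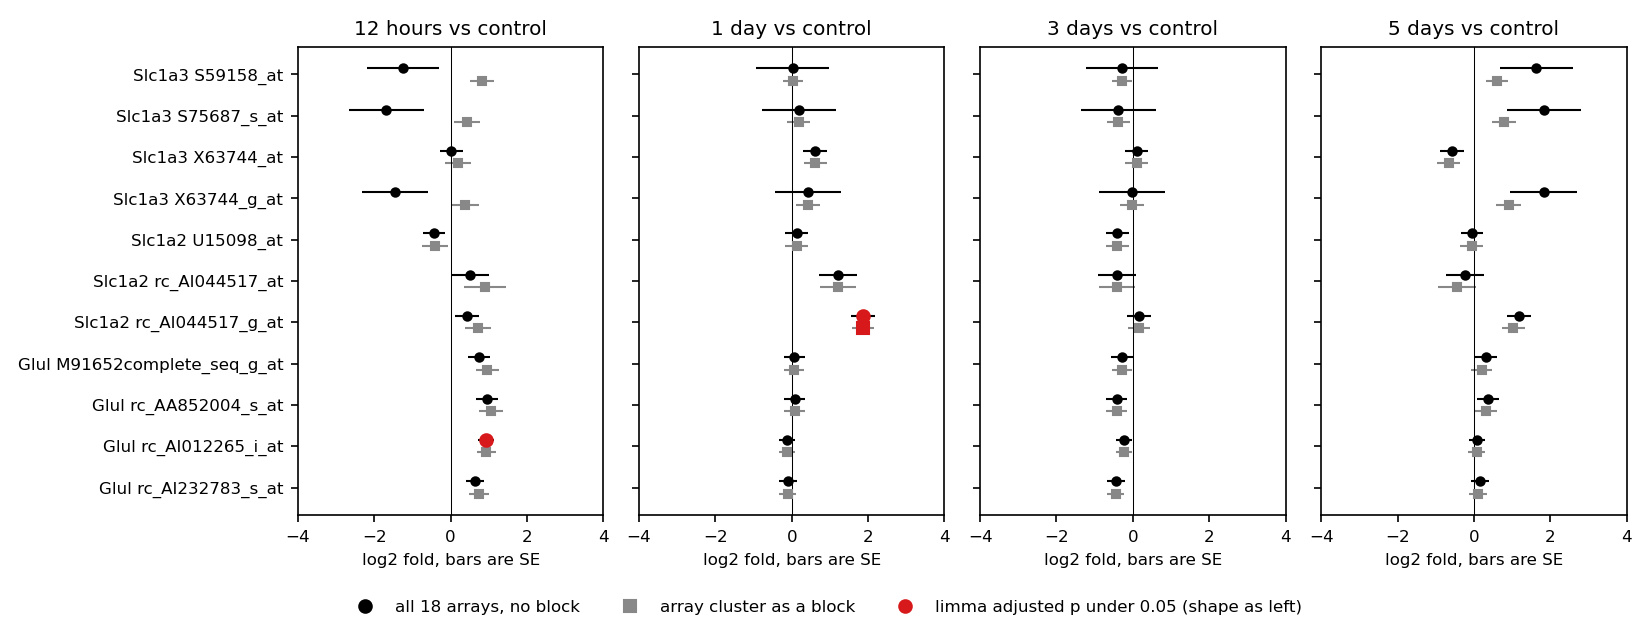
Log2 fold of each probe set against the 6 controls at each time, with bars of 1 SE, without a block (circles) and with the array clusters as a block (squares). Red marks limma adjusted p under 0.05. Slc1a3 S59158_at, S75687_s_at and X63744_g_at change sign at 12 hours with the block, and Glul does not. The red Slc1a2 point at 1 day stays in place, while the red Glul point at 12 hours is not red with the block.

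Counted over the 11 probe sets, 1 was called at 12 hours against control, where 1.66% of the 1027 tested were, and 1 at 1 day, where 0.292% were. None was called at 3 days or 5 days, where 0.0% of all were by limma, and 0 and 1 of the 11 had an unadjusted p under 0.05 (47 and 94 of all tested). None was called for 1 day against 12 hours (0.0% of all, 4 members and 150 of all at unadjusted p under 0.05). None was called for 3 days against 1 day (0.0974% of all, with 2 members and 86 of all at unadjusted p under 0.05). Nor was any for 5 days against 3 days (0.292% of all, with 3 members and 118 of all at unadjusted p under 0.05). For 5 days against 12 hours 3 were called, 2 of Slc1a3 higher and 1 of Glul lower, where 16.5% of all were. Over the 5 groups 1 was called, with 1.66% of all.

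Ranges that did not overlap the controls were found for 4 members at 12 hours, all of Glul and all higher, where 15.2% of all tested did so in either direction. At 1 day 1 member did so (rc_AI044517_g_at, 1.95% of all), at 3 days none (1.56% of all), and at 5 days 3, all higher (rc_AI044517_g_at, S59158_at and S75687_s_at, 5.36% of all). Between 5 days and 12 hours 10 of 11 members did not overlap, 5 higher and 5 lower, where 53.7% of all did not. The share of members there has to be read against clusters that fully coincide with these 2 groups.

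Slc1a3 and Glul were set against each other within clusters, by S59158_at and rc_AI232783_s_at. Their correlation was 0.980 over the 7 arrays of cluster 1 and 0.728 over the 11 of cluster 2. In cluster 1 the arrays lay in a low set (control 2, 1 day array 3 and 3 days array 3, with Slc1a3 at 259.8 to 301.9) and a high set (control 1 and the 3 of 12 hours, at 533.3 to 654.8), and no correlation was computed within these sets. Slc1a2 U15098_at correlated with S59158_at at -0.460 in cluster 1 and 0.721 in cluster 2, and with rc_AI232783_s_at at -0.392 and 0.718. These values share the arrays and their scaling.

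**Figure D4:**
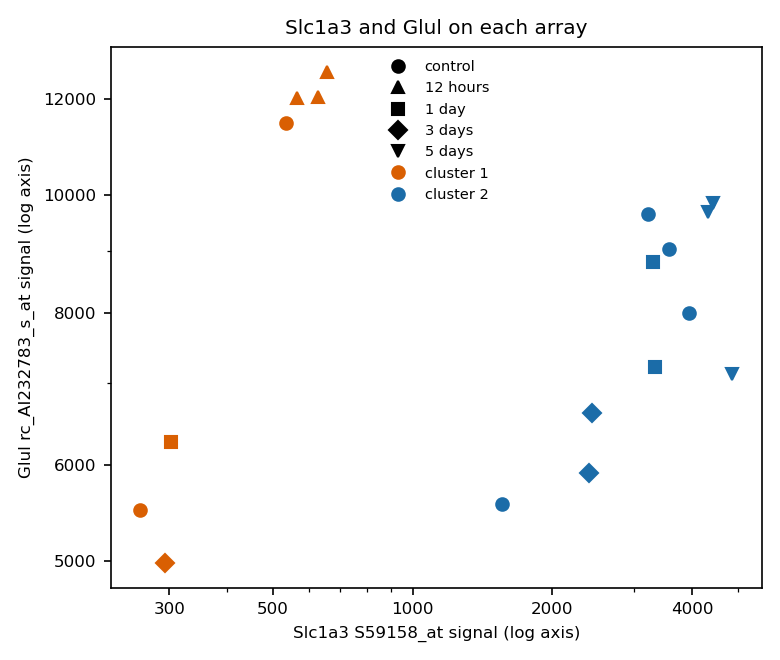
Signal of Slc1a3 S59158_at against Glul rc_AI232783_s_at, both on log axes, 1 point an array, coloured by cluster and shaped by group. The clusters part along the Slc1a3 axis and overlap along the Glul axis, and the 3 arrays of 12 hours are at the top left beside control 1.

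The probe sets most like each gene were taken by the Pearson correlation with its brightest probe set over the 18 arrays. Correlations within clusters are given, since arrays of different clusters set a joint value for Slc1a3. For Slc1a3 they were 2 probe sets of Ckb (brain creatine kinase), and those of Ncan (the proteoglycan neurocan), Mt3 (a metallothionein) and Nrxn2 (a neurexin). Mt3 had 0.918 in cluster 1 and 0.830 in cluster 2, and Ncan 0.894 and 0.470. For Glul they were Fosl1, Junb and Jun, which encode transcription factor subunits, with Ppp3ca (a calcineurin subunit) and Syt4 (a synaptotagmin). Junb had 0.964 in cluster 1 and 0.886 in cluster 2, Fosl1 0.947 and 0.750, and Jun 0.934 and 0.719, while Ppp3ca had 0.982 and -0.157. For Slc1a2 they were Msmo1 (a sterol synthesis enzyme), Ccl20 (a chemokine), Mt2A (a metallothionein), Maob (monoamine oxidase B) and Atp1b2 (a sodium pump subunit). Msmo1 had -0.472 in cluster 1 and 0.898 in cluster 2.

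No other gene of glutamate and GABA handling passed the test. Of a list of 35 genes, 10 besides these 3 were measured and 7 tested, and limma called none of the 7 in any of the 8 comparisons between 2 groups, with at most 2 at an unadjusted p under 0.05. Their median log2 fold at 12 hours was -0.04 beside -0.18 over all tested, and for 5 days against 12 hours 0.01 beside 0.01. Single members had folds as large as those of Glul. Gad1, which encodes a GABA-synthesizing enzyme, had -1.17 at 3 days against control (SE 0.30, limma adjusted p = 0.665) and 1.19 for 5 days against 3 days (SE 0.34, limma adjusted p = 0.157). Slc1a1, a glutamate transporter of neurons, had 1.24 for 5 days against 3 days (SE 0.47, limma adjusted p = 0.335). Glud1, which encodes glutamate dehydrogenase, had the smallest adjusted p, at a log2 fold of -0.90 for 5 days against 12 hours (limma adjusted p = 0.0744). Its signal was 4150.6 to 4878.6 in cluster 1 and 2068.3 to 3507.2 in cluster 2, without overlap and opposite in direction to Slc1a3. Signals of Slc1a1 were 85.5 to 537.5. Slc1a6, another neuronal transporter, was at 7.9 to 18.6 and not tested.

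The sodium pump sets the gradient that drives uptake. Of 11 genes 4 were measured and 3 tested, and 1 rose and 1 fell between 12 hours and 5 days, the contrast in which 16.5% of all probe sets were called and which coincides with the array clusters. Atp1b2, a glial beta subunit, rose by a log2 fold of 2.19 (SE 0.38, limma adjusted p = 0.00775), and Atp1b3, another beta subunit, fell by 0.78 (SE 0.24, limma adjusted p = 0.0446). With the clusters as a block 0 of the 3 were called. In the other 7 comparisons limma called none of the 3, with at most 2 at an unadjusted p under 0.05. Atp1b2 had 247.1 to 374.9 in cluster 1 and 315.4 to 1531 in cluster 2, which overlapped.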

How the data were processed

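The authors deposited a table of signal intensity on a linear scale, with 1322 probe sets on 18 arrays. The software and the target of its scaling are not named in the labels. Trimmed of 2% at each end, array means were 502.067 to 502.632, so no scaling was added. The median was 101.6 to 133.1, and 6.33% to 12.5% of values were at or under the floor. The number of arrays limits the precision. No 2 arrays shared over 0.681% of their values.

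After 59 control probe sets were set aside, values of the 1263 others were floored at their 10th percentile (11.3) and put on the log2 scale. A probe set was tested if at least 3 arrays exceeded the 30th percentile (44.9), as 1027 did. The 5 groups were fitted together with lmFit and eBayes of limma 3.58.1 (R 4.3.3, 13 residual degrees of freedom), with two-sided tests and Benjamini-Hochberg adjustment within each comparison at 0.05. The fit was tested on simulated data. Folds are differences of mean log2 signal. Symbols came from the platform annotation, and all 3 matched the RefSeq table. Of the 1263 probe sets 1137 had 1 symbol, 8 several and 118 none.

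All probe sets of the 3 genes were named, none averaged. For each gene the 5 probe sets most correlated with its brightest were named. Lists took the brightest probe set of a gene. The genes, lists and alternatives were chosen with earlier results of these data known. Clusters came from average linkage on 1 minus Pearson r. Alternatives varied floor, filter, scaling, variance model, blocks and arrays.

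Deviations from group means correlated at 0.390, 0.429 and 0.683 between same-numbered arrays of 1 day and 3 days. They were negative between controls and 1 day (-0.303, -0.541 and -0.247) and between controls and 3 days (-0.505, -0.600 and -0.417). The remaining group pairs had values from -0.119 to 0.080. The labels give no pairing, and array 3 alone lay in cluster 1 in both groups, so pairing and clusters cannot be told apart.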

Additional observations from a re-analysis of the deposited data

Results flagged for a closer look

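On Slc1a2 U15098_at, control 3 at 36.5 stood apart from the other 5 controls, at 80.7 to 107.4. Its gap took 0.735 of the control range, above Dixon's critical value of 0.625. Chance does this in about 1 group in 20, and 11 probe sets were looked at. The difference between 5 days and 12 hours, which share their controls, passed limma's test on Slc1a3 S75687_s_at (log2 3.52) and X63744_g_at (3.28) and on Glul rc_AI012265_i_at (-0.84). Exposure time and array cluster cannot be told apart in these 3.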

How the results depend on the processing

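Of the log2 folds recomputed under the alternatives, 2560 stayed on their side of the threshold. These kept their direction or, if uncalled, turned with a shift under the SE of the reported fit. Another 60 lost a call and 22 gained one. In 31 an uncalled fold changed direction with a shift of at least that SE, and no called value reversed. For 12 hours against control, 1 member was called, and 0 under cyclic loess, with only those groups fitted, with the replicate block, with the clusters as a block and within cluster 1, but 6 without controls 1 and 2. In that last fit 321 of all 1027 probe sets were called. For 1 day against control, 1 was called, and 0 with only those groups fitted, with the replicate block and within cluster 1. For 1 day against 12 hours, 0 became 2 without controls 1 and 2 (22 of all probe sets). For 3 days against 1 day, 0 became 1 without controls 1 and 2, with the clusters as a block and within cluster 2. Of all probe sets 5, 13 and 38 were called in these fits. For 5 days against 12 hours, 3 became 1 with no filter, 1 under quantile normalization, 5 with only those groups fitted and 0 with the clusters as a block. There 98, 94, 392 and 0 of all probe sets were called. Over the 5 groups, 1 became 4 without controls 1 and 2 (219 of all probe sets). The cause of these moves was not tested.

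Leaving out 1 array at a time gave 0 to 4 called members at 12 hours (4 without control 1), 0 to 1 at 1 day (0 without its array 1 or 2), 0 to 2 for 1 day against 12 hours (2 without control 1), 0 to 1 for 3 days against 1 day (1 without control 1 or 1 day array 3), 0 to 4 for 5 days against 12 hours and 0 to 3 over the 5 groups. The replicate block pairs samples by a number only. In 1 day and 3 days alone it left 0 members called, as without it. Over all 1027 probe sets, calls ranged over the alternatives from 0 to 321 at 12 hours (17 as reported), 0 to 123 at 1 day (3), 0 to 6 at 3 days (0), 0 to 61 at 5 days (0), 0 to 24 for 1 day against 12 hours (0), 0 to 38 for 3 days against 1 day (1), 0 to 24 for 5 days against 3 days (3), 0 to 392 for 5 days against 12 hours (169) and 1 to 219 over the 5 groups (17). Slc1a2 rc_AI044517_at was at or under the floor on 4 arrays, namely control 1, control 4, 3 days array 2 and 5 days array 1. Its positive folds at 12 hours and 1 day against control are therefore understated. At 3 days and 5 days the floor acted on both sides of the comparison. It raised controls 1 and 4 from 7.7 and 8.6, and single arrays of 3 days and 5 days from 9.8 and 10.7. The mean of the controls was raised more, so those negative folds are overstated by it.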
